A study of Homo sapiens with 18 samples.

Results

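VSTM2L, TAGLN3, B3GALT5 and MAST4 were 4 of the genes with the largest response to the glucocorticoid (GC) Dex in MDA-MB-231 cells that received the control siRNA. They were chosen by their symbols from the 60642 symbols in the counts, VSTM2L as the leading increase and the other 3 among the largest decreases, and all 4 were among the 15298 genes that passed the filter on low counts. The choice used siNS cells with Dex against siNS cells with Eth. That contrast is therefore given as a description with no test, whereas the responses in depleted cells come from other libraries and were tested. Adjusted p-values throughout are from edgeR's quasi-likelihood test with Benjamini-Hochberg adjustment over the 15298 genes, with 3 libraries against 3 in each comparison. Among genes past the threshold for the Dex response (adjusted p under 0.01 and a change of at least 1.5-fold) and with 5 CPM or more on average (counts scaled to the size of the library), VSTM2L had rank 1 of 208 increases in siNS cells, with a log2 fold change of 4.47, and TSC22D3 followed with 3.64. TAGLN3, B3GALT5 and MAST4 had ranks 3, 4 and 5 of 140 decreases, with log2 fold changes of -1.85, -1.58 and -1.52. ESM1 (-3.07) and IL11 (-2.14) were lower still and were not chosen, and MYPN, with -1.47, came next after MAST4. The mean used for these ranks is over all 18 libraries. B3GALT5 passed it narrowly, at 5.51 CPM, with 14.8 CPM in siPRMT5 cells with Eth. Its means in siNS cells were 3.74 CPM with Eth and 1.23 CPM with Dex. Nothing is therefore read from the ranks of B3GALT5.

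MDA-MB-231 is an established human line of triple-negative breast cancer (TNBC) with a mesenchymal-like phenotype. The cells were transfected with SMART-pool siRNAs against CBX3, the gene that encodes the chromatin protein HP1γ (siHP1γ), against the arginine methyltransferase PRMT5 (siPRMT5), or with a non-specific sequence (siNS), and received 100 nM of the synthetic GC Dex or its vehicle ethanol (Eth) for 8 h. RNA from 3 replicates of each of the 6 conditions gave 18 libraries. The design asks how far genes regulated by Dex through the glucocorticoid receptor (GR) depend on HP1γ and PRMT5, which the study examined as coregulators of GR. All groups are a single cell line under transient depletion, and in such bulk RNA a change in the number of cells that express a gene cannot be told apart from a change in RNA per cell.

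GR is a ligand-activated transcription factor that, once bound by GC, enters the nucleus and raises or lowers the transcription of its target genes. VSTM2L encodes a secreted protein with an immunoglobulin-like V-set domain and is known as an antagonist of the peptide humanin. TAGLN3 encodes a neuronal member of the transgelins, small calponin-homology proteins of the actin cytoskeleton. B3GALT5 encodes a Golgi galactosyltransferase that makes type 1 chain glycans, the precursors of the Lewis a antigens that include the tumour marker sialyl Lewis a. MAST4 encodes a microtubule-associated serine/threonine kinase with a PDZ domain.

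Library totals ranged from 8682992 to 12472381 counts, which limits the precision of the lowest values (VSTM2L had 7 to 9 counts in each siNS library with Eth). CBX3 had a log2 fold change of -4.69 without Dex and of -4.06 with Dex in siHP1γ against siNS cells, and PRMT5 had -5.08 and -4.50 in siPRMT5 against siNS cells. PRMT5 was also called lower in siHP1γ than in siNS cells (adjusted p under 0.05), without and with Dex, though it fell far less than in siPRMT5 cells. CBX3 was not called in siPRMT5 against siNS cells at either treatment. The part of the lower PRMT5 of siHP1γ cells in the comparisons of the depletions was not tested. The cell line markers VIM, CD44, AXL and EGFR were present in every library, whereas ESR1, PGR and CDH1 had 0 to 2 counts. EPCAM, listed among genes that should be near 0, had 8.57 to 14.0 CPM. Of the markers of other cell types, PTPRC and ALB had at most 2 counts and PECAM1, an endothelial adhesion molecule, had 1.10 to 8.15 CPM. Like VSTM2L, PECAM1 rose with Dex in siNS (log2 fold change 1.67, adjusted p = 1.59e-05) and siPRMT5 cells (1.06, adjusted p = 0.000116), and had 0.62 (adjusted p = 0.0744) in siHP1γ cells. Of the 5 neuronal markers, ELAVL4 and STMN2 had 0 or 1 count and SYP 1 to 9 counts, while TUBB3 had 2.96 to 11.2 CPM and MAP2 1.06 to 11.7 CPM. MAP2, a microtubule-associated protein, rose with Dex in siHP1γ cells (log2 fold change 1.27, adjusted p = 1.71e-05) and in siPRMT5 cells (2.94, adjusted p = 4.54e-11). TUBB3 had 0.21 (adjusted p = 0.498) in siHP1γ and -0.56 (adjusted p = 0.0475) in siPRMT5 cells, and the mean of SYP with Eth and Dex was 0.471 and 0.258 CPM in siHP1γ and 0.896 and 0.418 CPM in siPRMT5 cells, so that the neuronal markers did not move in 1 direction. The part of these markers in the results was not tested.

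In GENCODE 44 on hg38, VSTM2L lies on chr20:37903111-37945350 and TAGLN3 on chr3:111998739-112013887, each on the plus strand and with no other gene overlapping it. B3GALT5 (chr21:39556442-39673137, plus strand) overlaps B3GALT5-AS1, which had 0 counts in every library. MAST4 (chr5:66596380-67169593, plus strand) overlaps MAST4-AS1, with 0 to 12 counts, and MAST4-IT1, with 0 counts. The sources used here do not give the strand setting of the counting, so reads of MAST4 and MAST4-AS1 cannot be told apart by strand. The table of RefSeq start sites (GRCh38.p14) used here held 3 of the 4 genes (TAGLN3, B3GALT5 and MAST4), with 8 windows of 300 bases in all, from 250 bases before to 50 bases after a start. Because TAGLN3, B3GALT5 and MAST4 were all lower with Dex, the bases before their first start in that table are given here. Those before the other start of B3GALT5 are given too. Each stretch runs up to the first exon of the gene within the window, 5′ to 3′ on the plus strand, with CG dinucleotides in capitals. Both B3GALT5 stretches lie inside the GENCODE span of the gene, downstream of its first base.
TAGLN3, chr3:111998672-111998738: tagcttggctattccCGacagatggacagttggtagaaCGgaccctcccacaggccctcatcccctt
B3GALT5 upstream start, chr21:39612690-39612939: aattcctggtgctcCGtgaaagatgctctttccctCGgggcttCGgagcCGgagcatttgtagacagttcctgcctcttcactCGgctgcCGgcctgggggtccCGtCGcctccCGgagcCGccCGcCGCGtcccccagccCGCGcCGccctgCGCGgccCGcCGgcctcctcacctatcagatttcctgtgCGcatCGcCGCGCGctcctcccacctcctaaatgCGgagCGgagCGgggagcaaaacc
B3GALT5 downstream start, chr21:39642146-39642384: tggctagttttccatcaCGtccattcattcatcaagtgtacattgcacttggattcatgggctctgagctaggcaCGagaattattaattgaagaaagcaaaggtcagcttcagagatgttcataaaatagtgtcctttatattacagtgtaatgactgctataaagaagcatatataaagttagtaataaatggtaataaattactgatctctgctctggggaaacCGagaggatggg
MAST4, chr5:66596143-66596379: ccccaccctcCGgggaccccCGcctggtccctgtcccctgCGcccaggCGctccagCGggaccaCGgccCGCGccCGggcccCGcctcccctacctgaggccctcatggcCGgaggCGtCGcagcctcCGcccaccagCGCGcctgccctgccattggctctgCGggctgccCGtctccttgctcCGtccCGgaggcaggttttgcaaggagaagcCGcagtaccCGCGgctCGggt
The upstream sequence of B3GALT5 held 28 CG dinucleotides in 250 bases (68.8% G or C), and part of it is also exon of B3GALT5-AS1, whereas the downstream sequence held 3 in 239 bases (37.2% G or C). The MAST4 sequence held 24 in 237 bases (75.9% G or C) and that of TAGLN3 2 in 67 bases (56.7% G or C). Counts per gene do not show which start was in use. The 8 windows were searched on both strands for the core of the GR response element, GNACA followed by 3 bases of any kind and TGTNC, for its half-site AGAACA, which can form an arm of that core, and for the AP-1 site TGANTCA. None of the 3 motifs was found in the 8 windows, and 0.39%, 14.8% and 7.71% of 35116 windows of that length in the table held them. This says only that these letters are not in these windows.

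VSTM2L had 0.773, 0.815 and 0.932 CPM in the siNS libraries with Eth and 18.8, 18.6 and 19.1 CPM with Dex. In siHP1γ cells it had 2.12, 2.34 and 2.43 CPM with Eth and 13.0, 13.9 and 16.1 CPM with Dex. In siPRMT5 cells it had 1.82, 1.53 and 1.30 CPM with Eth and 26.5, 23.6 and 24.1 CPM with Dex. Every Dex library was thus above every Eth library, and the 6 conditions followed each other without overlap, from siPRMT5 with Dex (24.7 ± 1.55 CPM, SD, n = 3) through siNS with Dex (18.9 ± 0.256) and siHP1γ with Dex (14.3 ± 1.59) to siHP1γ with Eth (2.30 ± 0.160), siPRMT5 with Eth (1.55 ± 0.263) and siNS with Eth (0.840 ± 0.0825). The share of all genes whose 6 conditions follow each other without overlap was not counted. VSTM2L was chosen for its rise in siNS cells, which favours a low siNS level with Eth and a high one with Dex. Nothing is therefore read from the place of siNS cells in this order.

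TAGLN3 had 23.3, 27.1 and 27.4 CPM in siNS cells with Eth and 8.04, 5.67 and 7.62 CPM with Dex. In siHP1γ cells it had 29.3, 34.7 and 34.1 CPM with Eth and 13.9, 13.4 and 15.1 CPM with Dex. In siPRMT5 cells it had 14.2, 14.0 and 14.5 CPM with Eth and 3.32, 2.79 and 3.17 CPM with Dex. Its highest condition was siHP1γ with Eth (32.7 ± 2.99 CPM, SD, n = 3) and its lowest siPRMT5 with Dex (3.10 ± 0.272). The levels of siPRMT5 cells with Eth and of siHP1γ cells with Dex overlapped, at a mean of 14.2 CPM each. Within the spread of the libraries, siHP1γ cells with Dex thus held as much TAGLN3 as siPRMT5 cells with Eth.

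B3GALT5 had 4.53, 2.85 and 3.83 CPM in siNS cells with Eth and 1.41, 1.20 and 1.09 CPM with Dex. In siHP1γ cells it had 6.68, 5.42 and 6.21 CPM with Eth and 3.54, 3.72 and 3.57 CPM with Dex. In siPRMT5 cells it had 14.2, 14.9 and 15.3 CPM with Eth and 3.32, 5.34 and 2.15 CPM with Dex. The siPRMT5 libraries with Eth (14.8 ± 0.575 CPM, SD, n = 3) stood above all others. The next, siHP1γ with Eth, had 6.11 ± 0.635 CPM. The levels of siNS with Eth, siHP1γ with Dex and siPRMT5 with Dex overlapped, and the 3 siPRMT5 libraries with Dex spread widely, from 19 to 65 counts.

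MAST4 had 23.8, 23.3 and 22.7 CPM in siNS cells with Eth and 8.83, 6.32 and 8.89 CPM with Dex. In siHP1γ cells it had 45.2, 42.2 and 42.3 CPM with Eth and 18.1, 17.0 and 15.9 CPM with Dex. In siPRMT5 cells it had 18.5, 20.1 and 21.4 CPM with Eth and 6.35, 7.73 and 9.05 CPM with Dex. The siHP1γ cells had the highest level at either treatment (43.2 ± 1.69 CPM with Eth and 17.0 ± 1.11 with Dex, SD, n = 3). The siNS and siPRMT5 libraries overlapped with Dex (8.01 ± 1.47 and 7.71 ± 1.35 CPM) but not with Eth (23.3 ± 0.583 and 20.0 ± 1.47 CPM). With Eth, these libraries did not overlap for 7505 of the 15298 genes tested. Nothing is read from this for MAST4.

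**Figure D1:**
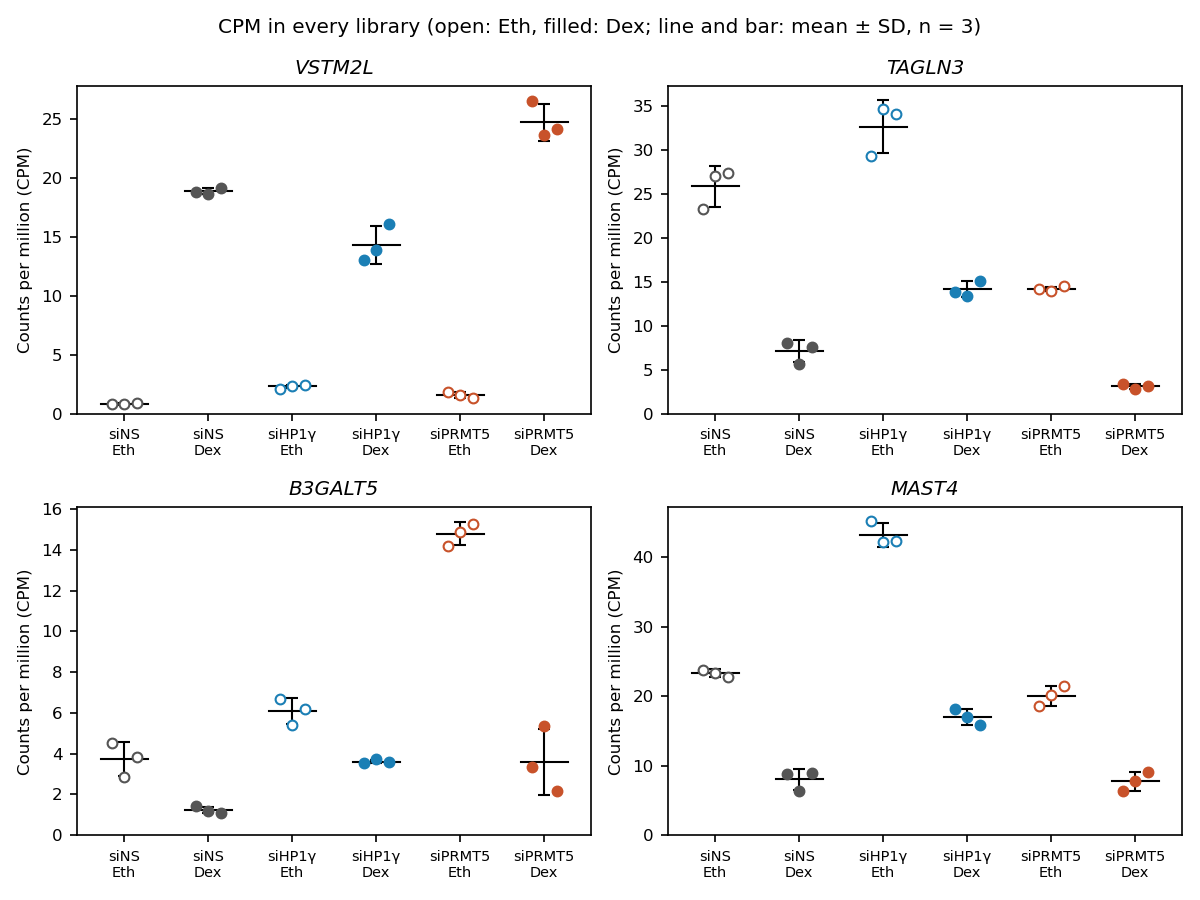
CPM of VSTM2L, TAGLN3, B3GALT5 and MAST4 (vertical axis, linear from 0) in every library of the 6 conditions (horizontal axis), with open points for Eth, filled points for Dex, and lines and bars for the mean ± SD of 3 libraries. VSTM2L is between 0.773 and 2.43 CPM in all Eth libraries and between 13.0 and 26.5 CPM in all Dex libraries, and B3GALT5 is highest in siPRMT5 cells with Eth (14.2 to 15.3 CPM).

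In siNS cells, where the genes were chosen, the log2 fold change with Dex was 4.47 (SE 0.177) for VSTM2L, -1.85 (0.122) for TAGLN3, -1.58 (0.292) for B3GALT5 and -1.52 (0.124) for MAST4. All 4 passed the threshold, as the choice required, against 1.65% of the 15298 genes in the upward and 1.06% in the downward direction, and in all 4 the Dex and Eth libraries did not overlap, as in 27.9% of the genes. Nothing is read from these shares. The mean CPM with Dex was 22.4 times that with Eth for VSTM2L, and 27.4%, 33.0% and 34.4% of it for TAGLN3, B3GALT5 and MAST4.

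In siHP1γ cells, VSTM2L rose and TAGLN3 and MAST4 fell with Dex, whereas B3GALT5 was lower without passing the threshold. The log2 fold change of VSTM2L was 2.63 (SE 0.146, adjusted p = 8.57e-13). That of TAGLN3 was -1.21 (SE 0.107, adjusted p = 9.16e-09) and that of MAST4 -1.34 (SE 0.105, adjusted p = 8.14e-10). For B3GALT5 it was -0.75 (SE 0.209), and its adjusted p of 0.0297 missed the threshold of 0.01. Thus 3 of 4 genes were called, where 1.01% of the genes tested passed as higher and 0.660% as lower. The call of B3GALT5 turned on the settings, since the gene passed with an adjusted p of 0.00722 when no filter on low counts was applied (range over 8 alternatives 0.00722 to 0.0376), and with 0.00746 without siPRMT5 Dex replicate 2 (range over the 18 libraries left out in turn 0.00746 to 0.14). VSTM2L now had rank 3 of 122 increases, MAST4 rank 4 and TAGLN3 rank 7 of 88 decreases, counted as for siNS cells.

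In siPRMT5 cells, VSTM2L rose and TAGLN3, B3GALT5 and MAST4 fell with Dex. The log2 fold change of VSTM2L was 3.99 (SE 0.153, adjusted p = 1.04e-16), rank 1 of 316 increases with 5 CPM or more on average. TAGLN3 had -2.20 (SE 0.154, adjusted p = 2.55e-11), rank 2 of 334 decreases after IL11, and B3GALT5 had -1.98 (SE 0.188, adjusted p = 8.15e-09), rank 4. The rank of B3GALT5 rests on its mean over all libraries, which its siPRMT5 libraries with Eth raise, and is not read. MAST4, with -1.38 (SE 0.128, adjusted p = 5.74e-09), had rank 23. The 4 genes were called where 2.69% of the genes tested passed as higher and 2.75% as lower. In the siHP1γ and the siPRMT5 cells alike, the Dex and Eth libraries of all 4 genes did not overlap, which held for 21.8% and 28.7% of all genes tested in either direction. The exact two-sided permutation test of CPM then gave 0.1 for each gene, the smallest p that 3 libraries against 3 allow.

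**Figure D2:**
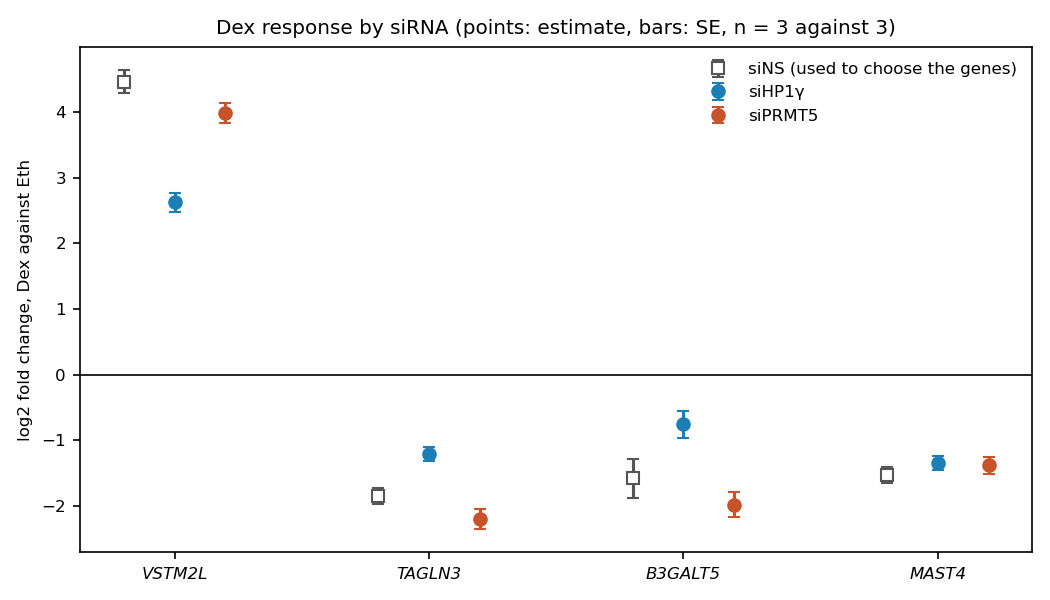
Log2 fold change with Dex against Eth (vertical axis) of the 4 genes (horizontal axis) in siNS cells (open squares, the contrast used to choose the genes), siHP1γ cells and siPRMT5 cells, with bars for the SE of 3 libraries against 3. For VSTM2L, TAGLN3 and B3GALT5 the siHP1γ points (2.63, -1.21 and -0.75) lie nearer to 0 than the siPRMT5 points (3.99, -2.20 and -1.98), while the MAST4 points lie between -1.52 and -1.34.

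The Dex responses of siPRMT5 and siHP1γ cells share no library with each other or with the contrast that chose the genes, so their difference could be tested. It passed an adjusted p of 0.05 for 3 of the 4 genes, where 2.10% of all genes tested passed. The response of VSTM2L was larger in siPRMT5 cells, by 1.36 on the log2 scale (SE 0.250, adjusted p = 0.00183). TAGLN3 fell further in siPRMT5 cells, with a difference of -0.99 (SE 0.193, adjusted p = 0.00357), and so did B3GALT5, with -1.23 (SE 0.288, adjusted p = 0.0179). The difference of B3GALT5 missed 0.05 (adjusted p from 0.0509 to 0.0567) without siHP1γ Eth replicate 2, siHP1γ Dex replicate 2, or siPRMT5 Dex replicate 1 or 3. MAST4 did not pass, with a difference of -0.04 (SE 0.164, adjusted p = 0.970) and a 95% interval from -0.38 to 0.30.

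Of the other genes that rose with Dex, 3 known as GR-induced can be set beside VSTM2L. TSC22D3, which encodes the anti-inflammatory protein GILZ, had a log2 fold change with Dex of 2.63 in siHP1γ and of 3.24 in siPRMT5 cells, and the difference was 0.60 (SE 0.144, adjusted p = 0.0204). FKBP5, which encodes a cochaperone that restrains GR, had 1.71 and 2.99, with a difference of 1.28 (SE 0.105, adjusted p = 1.45e-08). PER1, a clock gene, had 1.79 and 2.34, with a difference of 0.55 (SE 0.143, adjusted p = 0.0419). These 3 genes therefore differed between the depletions in the same direction as VSTM2L. Over all 15298 genes tested, 197 were called higher and 124 lower in this difference. Genes called for Dex numbered 832 in siPRMT5 and 255 in siHP1γ cells. Nothing is read from the shared direction. NR3C1, which encodes GR, was not called for Dex in either cell state, and was higher in siPRMT5 than in siHP1γ cells by 0.29 without Dex (adjusted p = 0.00972) and by 0.27 with Dex (adjusted p = 0.0152). The part of the GR level in the responses was not tested.

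**Figure D3:**
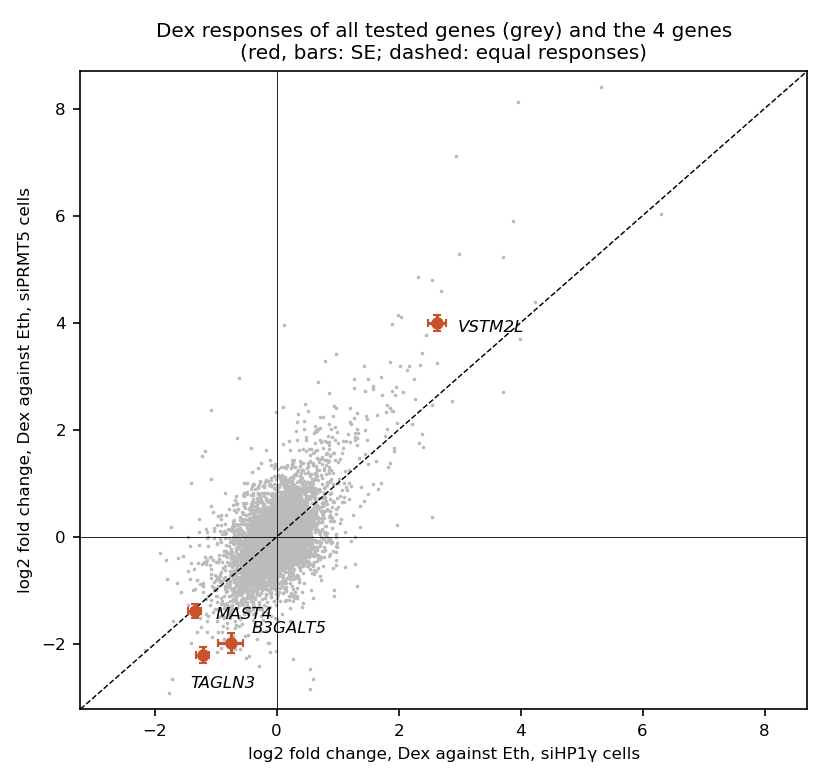
Log2 fold change with Dex in siHP1γ cells (horizontal axis) against that in siPRMT5 cells (vertical axis) for the 15298 genes tested (grey) and the 4 genes (red, with SE bars), with a dashed line where both are equal. VSTM2L lies above the line (2.63 and 3.99), TAGLN3 (-1.21 and -2.20) and B3GALT5 (-0.75 and -1.98) lie below it, and MAST4 lies close to it (-1.34 and -1.38).

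The same responses ordered the depletions differently for TAGLN3 when given as an amount of RNA instead of a ratio. The mean level of TAGLN3 with Dex was 43.3% of that with Eth in siHP1γ cells and 21.8% in siPRMT5 cells, but the difference in level, Dex minus Eth, was -18.5 CPM (SE 1.80) in siHP1γ and -11.1 CPM (SE 0.220) in siPRMT5 cells. For MAST4, the levels with Dex were 39.3% and 38.6% of those with Eth, and the differences in level were -26.2 CPM (SE 1.16) and -12.3 CPM (SE 1.15). B3GALT5 kept the order on either scale, with 59.1% and 24.4%, and with -2.50 CPM (SE 0.371) and -11.2 CPM (SE 0.990). VSTM2L kept it too, with levels 6.23 and 16.0 times those with Eth and differences in level of 12 CPM (SE 0.922) and 23.2 CPM (SE 0.906).

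Set beside siNS cells, whose response chose the genes, the response of VSTM2L was smaller by a log2 difference of -1.84 (SE 0.280) in siHP1γ and of -0.48 (SE 0.307) in siPRMT5 cells. For TAGLN3 these differences were 0.65 (SE 0.165) and -0.35 (SE 0.206), for B3GALT5 0.83 (SE 0.366) and -0.40 (SE 0.374), and for MAST4 0.18 (SE 0.164) and 0.14 (SE 0.182). These values include the libraries of the choice and are descriptions.

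Comparisons with siNS cells share the siNS libraries with the contrast that chose the genes, so their log2 fold changes are given as a description with no test. Without Dex, siHP1γ against siNS cells had a log2 fold change of 1.44 (SE 0.261) for VSTM2L, 0.33 (SE 0.102) for TAGLN3, 0.71 (SE 0.215) for B3GALT5 and 0.89 (SE 0.103) for MAST4. All 4 means were higher in siHP1γ cells, where 2531 of the 15298 genes tested were called higher and 2329 lower. For VSTM2L the choice favours a low siNS level with Eth. Nothing is read from the shared direction.

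siPRMT5 against siNS cells without Dex had a log2 fold change of 1.99 (SE 0.192) for B3GALT5, -0.87 (SE 0.113) for TAGLN3, 0.87 (SE 0.292) for VSTM2L and -0.22 (SE 0.111) for MAST4. The mean of B3GALT5 in siPRMT5 cells was 396% of that in siNS cells, while that of VSTM2L rests on few counts (7 to 9 in siNS and 13 to 17 in siPRMT5 libraries).

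Set against each other without Dex, a comparison that shares no library with the choice, siPRMT5 cells had less TAGLN3 than siHP1γ cells (log2 fold change -1.20, SE 0.110, adjusted p = 1.49e-09) and less MAST4 (-1.11, SE 0.105, adjusted p = 2.79e-09). They had more B3GALT5 (1.28, SE 0.173, adjusted p = 1.11e-06). VSTM2L, with -0.57 (SE 0.229, adjusted p = 0.0686) and a 95% interval from -1.04 to -0.10, did not pass, although the libraries of the groups did not overlap (exact permutation p = 0.1), as in 56.4% of the genes tested. The 3 calls compare with 23.4% of the genes tested as higher and 25.0% as lower.

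With Dex, siHP1γ against siNS cells had a log2 fold change of -0.40 (SE 0.104) for VSTM2L, 0.98 (SE 0.129) for TAGLN3, 1.53 (SE 0.286) for B3GALT5 and 1.07 (SE 0.126) for MAST4. The mean levels in siHP1γ cells were 75.9% of the siNS level for VSTM2L and 199%, 293% and 212% for TAGLN3, B3GALT5 and MAST4. Genes chosen as high or low in the siNS Dex libraries can differ from them in these directions through the choice alone.

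With Dex, siPRMT5 against siNS cells had a log2 fold change of 0.39 (SE 0.0993) for VSTM2L, 1.59 (SE 0.287) for B3GALT5, -1.22 (SE 0.169) for TAGLN3 and -0.08 (SE 0.143) for MAST4, whose libraries overlapped. The mean of TAGLN3 was 43.6% of the siNS level.

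With Dex, siPRMT5 against siHP1γ cells, which leaves the siNS libraries out, had more VSTM2L (0.79, SE 0.102, adjusted p = 4.55e-07), less TAGLN3 (-2.20, SE 0.151, adjusted p = 7.57e-12) and less MAST4 (-1.15, SE 0.128, adjusted p = 4.32e-08). B3GALT5, which differed without Dex, no longer did so past the threshold (0.05, SE 0.227, adjusted p = 0.870, 95% interval from -0.42 to 0.52), and the libraries overlapped. The calls compare with 24.4% of the genes tested as higher and 25.5% as lower. For MAST4 the difference between the depletions was thus of similar size without and with Dex (-1.11 and -1.15), while for TAGLN3 it was larger with Dex (-1.20 and -2.20), as the test of the Dex responses above gave.

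**Figure D4:**
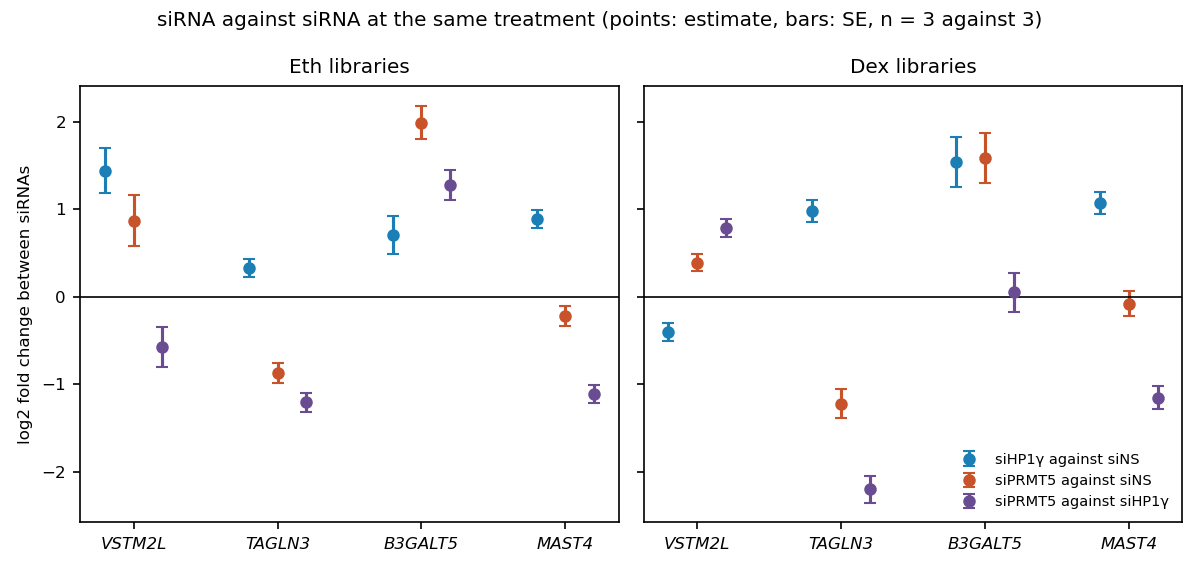
Log2 fold change between siRNAs (vertical axis) for the 4 genes (horizontal axis) in the Eth libraries (left) and the Dex libraries (right), with bars for the SE of 3 libraries against 3. In both panels TAGLN3 lies above 0 for siHP1γ and below 0 for siPRMT5 against siNS cells, and B3GALT5 is higher in either depletion (0.71 and 1.99 with Eth, 1.53 and 1.59 with Dex).

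None of the tested relatives in the 3 gene families was called for Dex, and with at most 4 relatives a family, and the small shares of all genes called given above, this does not set them apart from other genes. VSTM2A and VSTM2B, the nearest relatives of VSTM2L, had 0 counts in every library, which allows no comparison. Of 5 relatives of TAGLN3 (TAGLN, TAGLN2, CNN1, CNN2 and CNN3, the transgelins and calponins), 4 were tested and 0 were called for Dex in siNS, siHP1γ or siPRMT5 cells, with a median log2 fold change of 0.03 in both depleted states where the median over all genes was 0.00. TAGLN2 had -0.19 (SE 0.0682, adjusted p = 0.0524) in siPRMT5 cells and CNN2 0.27 (SE 0.0711, adjusted p = 0.0146) in siNS cells. Without Dex, siPRMT5 against siHP1γ cells had more TAGLN2 (0.74, adjusted p = 2.20e-09), CNN2 (0.84, adjusted p = 3.72e-10) and CNN3 (0.39, adjusted p = 3.97e-06), while TAGLN (0.29, adjusted p = 0.332) did not pass, so that 3 of 4 were higher where TAGLN3 was lower. Of all genes tested, 23.4% were higher and 25.0% lower there.

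The β-1,3-galactosyltransferase family held 6 other genes, of which B3GALT2 and B3GALT4 had 0 counts. B3GALT1, B3GALT6, B3GALNT1 and B3GALNT2 were tested, and 0 of 4 were called for Dex in any of the 3 cell states. B3GALT6, which builds the linker of proteoglycans, came nearest in siPRMT5 cells (0.49, SE 0.128, adjusted p = 0.00787, under the 1.5-fold threshold), in the direction opposite to B3GALT5. Without Dex, siPRMT5 against siHP1γ cells had less B3GALT6 (-1.07, adjusted p = 7.49e-08) and more B3GALNT1 (0.70, adjusted p = 1.34e-05) and B3GALT1 (0.75, adjusted p = 0.0402, with libraries that overlapped).

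Of 17 other genes of type 1 chain and Lewis antigen synthesis, 10 were tested. The fucosyltransferases FUT5, FUT6 and FUT7 had 0 counts, and FUT2 and FUT3 had at most 2. B3GNT5, which starts the lacto-series chains of glycolipids, was the only one of the 10 called for Dex. Its mean level was 112 CPM with Eth and 226 CPM with Dex in siHP1γ cells, and 25.0 and 65.4 CPM in siPRMT5 cells. It rose by 1.01 (SE 0.0897, adjusted p = 9.22e-09) in siHP1γ and by 1.39 (SE 0.105, adjusted p = 1.14e-10) in siPRMT5 cells, while B3GALT5, a later enzyme of the pathway, was lower. Without Dex, siPRMT5 against siHP1γ cells had less B3GNT5 (-2.16, adjusted p = 8.67e-15) and more FUT4, the fucosyltransferase of Lewis x (1.44, adjusted p = 2.56e-09). In all, 2 of the 10 were higher and 5 lower there, where 23.4% and 25.0% of all genes tested were, with a median of -0.32 where the median over all genes was 0.00.

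MAST1, MAST2, MAST3 and MASTL, a mitotic kinase, were all tested, and 0 of 4 were called for Dex in the 3 cell states. MAST2 had -0.21 (SE 0.0716, adjusted p = 0.0885) in siHP1γ cells. Like MAST4, MAST1 (-0.73, adjusted p = 0.0112) and MAST2 (-0.63, adjusted p = 8.77e-08) were lower in siPRMT5 than in siHP1γ cells without Dex, while MAST3 (-0.27, adjusted p = 0.127) and MASTL (0.10, adjusted p = 0.322) did not pass. With Dex, MAST1 (-1.33, adjusted p = 4.12e-05) and MAST2 (-0.57, adjusted p = 5.23e-07) were again lower.

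**Figure D5:**
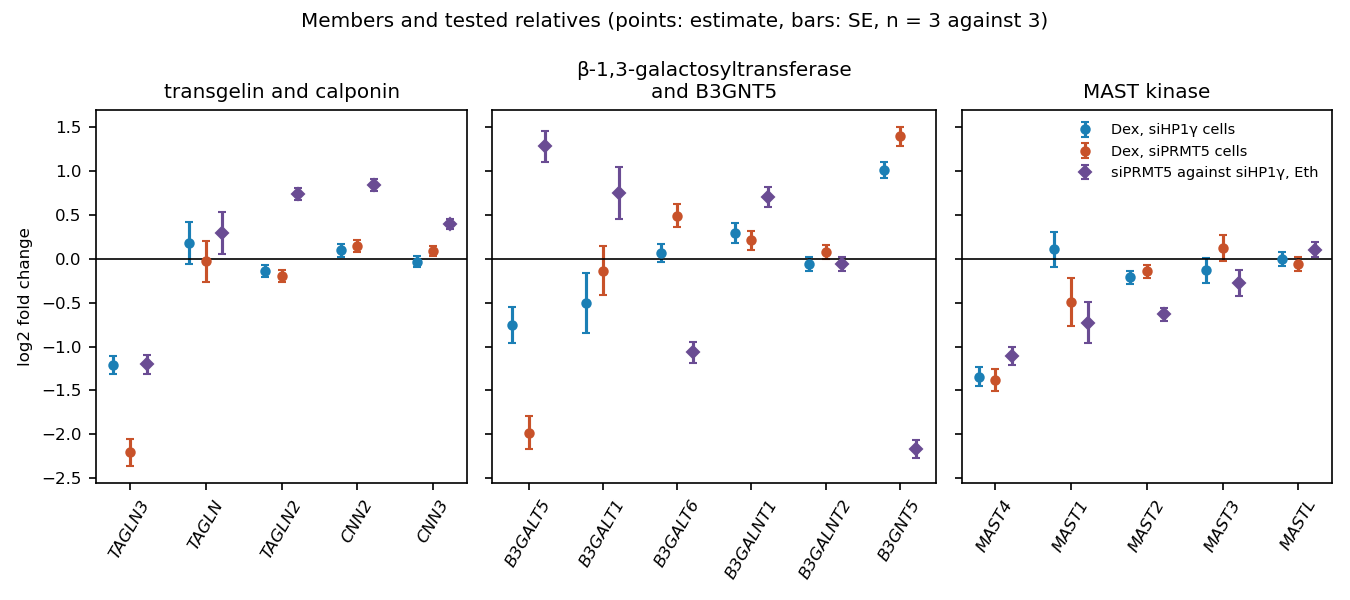
Log2 fold change (vertical axis) of TAGLN3, B3GALT5, MAST4 and their tested relatives (horizontal axis) with Dex in siHP1γ and in siPRMT5 cells (circles) and in siPRMT5 against siHP1γ cells with Eth (diamonds), with bars for the SE of 3 libraries against 3. The Dex responses of the relatives lie between -0.50 and 0.49 except that of B3GNT5 (1.01 and 1.39), whereas those of TAGLN3, B3GALT5 and MAST4 lie between -2.20 and -0.75.

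Within 500 kb, 9 neighbours of VSTM2L, 6 of TAGLN3, 4 of B3GALT5 and 1 of MAST4 were tested. In siNS cells, KIAA1755 near VSTM2L (-1.26, adjusted p = 0.000219) and PLCXD2 near TAGLN3 (-1.04, adjusted p = 2.23e-09) fell, and in siHP1γ cells 0 of these neighbours were called. In siPRMT5 cells, RPRD1B, which encodes a protein that binds RNA polymerase II and lies 88.4 kb from VSTM2L, rose by 0.77 (SE 0.0800, adjusted p = 4.76e-08), and PLCXD2, 152.3 kb from TAGLN3, fell by 0.99 on the log2 scale (SE 0.0870, adjusted p = 2.19e-09). No tested neighbour of B3GALT5 or MAST4 was called for Dex in any cell state. With so few neighbours, these counts cannot be set apart from the shares of all genes called (1.65% higher and 1.06% lower in siNS, 1.01% and 0.660% in siHP1γ, and 2.69% and 2.75% in siPRMT5 cells). The difference of the Dex response between siPRMT5 and siHP1γ cells was called, as higher, for 3 of the 9 neighbours of VSTM2L. These were TTI1 (0.37, adjusted p = 0.0308), RPRD1B (0.53, adjusted p = 0.00636) and TGM2 (0.48, adjusted p = 0.00314). Of the 6 neighbours of TAGLN3, PLCXD2 alone was called, as lower (-0.53, adjusted p = 0.0214). No neighbour of B3GALT5 or MAST4 was called, and 2.10% of genes tested passed. The part of location was not tested. RPRD1B, PLCXD2, KIAA1755, TTI1 and TGM2 were named after their values were seen.

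The genes whose log2 CPM followed the 4 most closely over the 18 libraries were sought in the 14408 genes whose mean was 1 CPM or more, with Pearson's r as a description. The libraries share the 6 conditions, so r mainly reflects how the condition means line up. For VSTM2L these were PER1 (r = 0.990), ADPRHL1 (0.988) and TBC1D8 (0.984). In siPRMT5 cells with Dex, the highest condition of VSTM2L, PER1 too was highest, with 99.4 ± 6.32 CPM (SD, n = 3). For TAGLN3 they were CDCP1 (0.984), which encodes a transmembrane glycoprotein, EMP1 (0.980) and FRMD5 (0.973). EMP1 had 798 ± 8.55 CPM in siHP1γ cells with Eth and 201 ± 5.07 CPM in siPRMT5 cells with Dex, its extremes as those of TAGLN3. For B3GALT5 they were ARID5B (0.954), FRMD4B (0.942) and TSC22D1 (0.941), and for MAST4 they included LTBP2 (0.964), which encodes an extracellular matrix protein, and AMIGO2 (0.955). ARID5B peaked in siPRMT5 cells with Eth (109 ± 6.84 CPM) as B3GALT5 did, and LTBP2 in siHP1γ cells with Eth (129 ± 6.65 CPM) as MAST4 did. By rank correlation, 0 of the 3 genes of each list stayed among its top 3.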

How the data were processed

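The authors prepared cDNA libraries with Lexogen kits, mapped reads on hg38 with Bowtie2 (2.4.2) and counted them per gene with htseq-count (HTSeq 0.9.1), per the labels and the paper's methods. They deposited whole-number counts of each library without normalization for 60642 symbols, and a table of their own comparisons (fold changes and p-values), which was not used here. The strand setting and annotation are not given in the sources used here. Since Bowtie2 makes no spliced alignments, reads that span a junction may be missing from the counts.

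Genes were filtered with filterByExpr (15298 kept), scaled by TMM and fitted in edgeR 4.0.16 (R 4.3.3) with 1 mean for each of the 6 conditions over 18 libraries and 12 residual degrees of freedom. Contrasts were tested with the quasi-likelihood F test and Benjamini-Hochberg adjustment. The SE was the fold change (log2) divided by the square root of F. CPM are scaled by TMM. The Dex threshold joined the 1.5-fold of the study's text with an adjusted p under 0.01, which the study names beside a 2-fold minimum, so that 2-fold is among the alternatives. All other comparisons used an adjusted p under 0.05. The replicates are described as biological by the study. Replicate counts differed by more than sampling noise in every pair (chi-square of 2.1 to 12 per degree of freedom), which does not show whether they came from separate cultures. The fit was tested on simulated data.

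Comparisons of a depletion with siNS cells were fitted as planned, but are given for the 4 genes with no test because they share libraries with the choice. The 4 genes and the gene lists were chosen with earlier results of these data known. Named were the 4 genes, their families and pathway, the siRNA targets, NR3C1 with 3 GR-induced genes, genes ranked next to the 4, neighbours within 500 kb and the 3 genes with the highest Pearson correlation to each, of which 1 is not reported here. Coordinates are from GENCODE 44, in which 37471 symbols were found, and sequences from RefSeq. The alternatives were DESeq2 1.42.0, its size factors or the library size in edgeR, no filter, a mean of at least 10 counts, a replicate block, only the libraries compared, a fold change of at least 2, and each library left out in turn.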

Additional observations from a re-analysis of the deposited data

Results flagged for a closer look

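The Dex response of 3 of the 4 genes differed between siPRMT5 and siHP1γ cells in an interaction test over all genes. The log2 difference, siPRMT5 minus siHP1γ, was 1.36 for VSTM2L, -0.99 for TAGLN3 and -1.23 for B3GALT5, with adjusted p-values of 0.00183, 0.00357 and 0.0179 (edgeR's quasi-likelihood test with Benjamini-Hochberg adjustment). The test has 3 libraries in each condition. Over 18 fits that each omitted 1 library, the difference of B3GALT5 had adjusted p-values from 0.000531 to 0.0567 and missed 0.05 in 4 fits.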

How the results depend on the processing

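Of 348 values of the 4 genes under alternatives other than leaving out a library, 344 were scored as unchanged and 0 as reversed. Unchanged meant the same side of the threshold. For the Dex response in siNS cells and its differences from the depleted cells, it meant a log2 value within the spread of the libraries. Comparisons of a depletion with siNS cells were scored by the threshold too. They share libraries with the choice, so nothing is read from their scores. A reversal was scored only where a call was made, so values without a call could change sign. B3GALT5 in siPRMT5 against siHP1γ cells with Dex, for example, ranged from -0.017 to 0.064. B3GALT5 with Dex in siHP1γ cells passed with no filter on low counts (-0.75, adjusted p = 0.00722, range over 8 alternatives 0.00722 to 0.0376). The other values that changed sides were those of VSTM2L in siPRMT5 against siNS cells without Dex. They came with no filter (0.87), with only the libraries compared (0.86) and with DESeq2 (0.88). That comparison shares libraries with the choice, so its significance is not read under any setting. The cause was not tested. Over fits that left out each of 18 libraries, the log2 change ranged from -0.83 to -0.68 for B3GALT5 with Dex in siHP1γ cells, from -1.65 to -0.99 for the difference of its Dex response between siPRMT5 and siHP1γ cells, from 0.26 to 0.40 for TAGLN3 and from 0.54 to 0.86 for B3GALT5 in siHP1γ against siNS cells without Dex, and from 0.73 to 0.99 for VSTM2L in siPRMT5 against siNS cells without Dex. The calls that change in the tested comparisons are given with the results.

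Of 87 counts of genes called, 81 stayed within 1.5 times the main count. A fold change of at least 2 left 194, 106 and 373 genes called with Dex in siNS, siHP1γ and siPRMT5 cells, against 414, 255 and 832. The genes whose Dex response differed between siHP1γ and siNS cells numbered 61, but 374 with no filter, 94 with the replicate block, 298 with DESeq2, and 20 to 186 with a library left out. For siPRMT5 against siNS cells they numbered 582, and 319 to 897 with a library left out. With the library size alone, the share of higher calls in siHP1γ against siNS cells moved from 48.7% to 69.2% with Dex. Without Dex it moved from 52.1% to 63.8%. For the 4 genes no call is read in these comparisons, because they share libraries with the choice. The replicate numbers do not pair the libraries by label. Deviations from the condition means correlated above 0.1 in 6 of 45 same-numbered pairs (-0.186 to 0.315, median 0.007). They did so in 9 of 90 pairs of different number (-0.316 to 0.315, median -0.005). By mean correlation, 10 of 18 libraries were closest to their own number. The replicate block changed no call of the 4 genes in the tested comparisons. With a prior count of 0.5, the 3 genes of like pattern stayed for VSTM2L, TAGLN3 and MAST4, and 2 of 3 for B3GALT5, whereas 0 stayed by Spearman's correlation. Depth limits VSTM2L in siNS cells with Eth most, at 7 to 9 counts.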
